A study of Mus musculus with 2 samples.

Results

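The Zbtb20 locus on mouse chromosome 16 was described by the methylation of its CpG cytosines in hippocampal DNA of untreated and of arsenic-exposed mice. Its members were the 376 cytosines with at least 10 reads in both libraries between positions 42860000 and 43660000 of chromosome 16 (build mm9). They made up 376 of the 1543 cytosines listed there in either library, and 376 of the 2312276 analysed in the whole series. The locus was selected on a loss of methylation seen earlier in these same 2 libraries, so its differences between them are described and carry no test.

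Each group was a single bisulfite sequencing library of hippocampal DNA from C57BL/6 mice, enriched with the SureSelect mouse Methyl-Seq capture kit. The control received no treatment. The ATO library came from mice given 5000 ppb arsenic trioxide (ATO) in drinking water, beginning before their parents mated, going on through lactation and continued in the offspring after weaning. The series asks whether this exposure alters hippocampal DNA methylation. The labels give no age and do not say how many animals went into each library, and there was no replicate in either group.

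Zbtb20 encodes a zinc finger transcriptional repressor of the BTB family. In the developing brain it is known for setting the identity of hippocampal neurons, in particular the pyramidal cells of the CA1 field, against neighbouring cortex, and it is also expressed in astrocytes. Methylated CpGs are common in most mammalian DNA. CpG-dense promoters are usually free of methylation, and regulatory DNA within genes often carries intermediate levels that differ between cell types. A level in bulk tissue is an average over its cells, so a change within cells and a change in the mix of cells cannot be told apart in these data.

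The position of the gene was checked without an mm9 annotation, by matching the spacing of CpGs in RefSeq promoter sequences (build GRCm38.p6) to the listed cytosines. Of 1078 promoters on chromosome 16, 467 found a single match. Both tabled starts of 4932412D23Rik, a long noncoding RNA gene on the reverse strand that directly precedes Zbtb20 in the RefSeq gene order, fell inside the span, at mm9 positions 42875700 and 42875875. The start of Tigit, an immune receptor gene, fell 4.30 kb past the end of the span, and the 5 cytosines of its promoter had 85.2% and 82.0%. Zbtb20, 758704 bp long in RefSeq, lies between them in that order, together with 7 noncoding genes and pseudogenes. The only promoter tabled for Zbtb20 itself, at 43247034 to 43247333 of GRCm38.p6, holds 3 CpGs, too few to be placed, and was not analysed here. It need not be the first start of so long a gene, whose outer 5′ end was not located. Whether the unmethylated island described below also belongs to a start of Zbtb20 was not determined. Of all 32851 tabled promoters, 31.4% hold 3 or fewer. Exons and introns of the span are not given for want of an mm9 annotation.

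The 4932412D23Rik promoter is shown because it overlaps the end of the unmethylated island of the span. It is chr16:42875713-42876012 of GRCm38.p6 on the reverse strand, printed from 5′ to 3′ with each CpG in capitals. All of its 26 CpGs matched listed cytosines, in the mm9 window from 42875826 to 42876125.
4932412D23Rik: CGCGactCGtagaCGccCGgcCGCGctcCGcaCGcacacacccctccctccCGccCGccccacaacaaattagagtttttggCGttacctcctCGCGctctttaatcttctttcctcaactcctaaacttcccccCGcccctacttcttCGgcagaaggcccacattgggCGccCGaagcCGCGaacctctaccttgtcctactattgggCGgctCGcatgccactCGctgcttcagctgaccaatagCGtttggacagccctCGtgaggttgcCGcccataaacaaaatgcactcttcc
Of the 9 cytosines analysed in this window, all of them in the island, 6 had no methylated read in either library. The highest level was 10.5% in the control and 12.5% with ATO.

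The libraries held 135987272 and 147924810 calls. Cytosines of the span had a median of 51 reads (control) and 59.5 reads (ATO), and those of the rest of chromosome 16 had 42 and 46. The total coverage of the ATO library was 1.11 times that of the control in the span and 1.09 times on the rest of the chromosome.

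Methylation of the locus was much lower in the ATO library. The mean level was 62.6% in the control (SD 36.1 over cytosines) and 48.0% with ATO (SD 36.5), a difference of -14.6 points (SD 17.5). Summed over all calls, 14839 of 22956 were methylated in the control (64.6%, exact 95% interval 64.0 to 65.3) and 12075 of 25499 with ATO (47.4%, interval 46.7 to 48.0). These intervals cover read counting error only, not variation between animals. They take every call as independent, though calls on the same fragment are not, so they are too narrow even for that. Of the 376 cytosines, 273 were lower in the ATO library, 49 were higher and 54 were equal. The number at 80% or more fell from 170 to 110. On the rest of chromosome 16 the means were 39.3% and 38.3%, a difference of -1.08 points over 69522 cytosines, and 43.5% of these were lower.

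The locus held 1 unmethylated island, and it was alike in both libraries. The island, from 42875001 to 42876000, was defined as neighbouring 500-bp bins with at least 10 cytosines and a mean level under 10%. Its 42 cytosines averaged 2.31% in the control and 2.15% with ATO. Of 1468 control calls 2.32% were methylated (exact interval 1.61 to 3.22), and of 2009 ATO calls 2.09% (1.51 to 2.82). The difference was -0.15 points, with an SD of 5.27 over cytosines.

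Losses outside the island were spread along the span, though much of it had no analysed cytosine. Divided into 80 stretches of 10 kb, the span had analysed cytosines in 30, of which 29, that of the island included (-0.60 points), had a lower mean in the ATO library. Only 13 stretches held at least 10 cytosines, and these contained 293 of the 376. All 13 were lower, 10 of them by at least 5 points and 4 by at least 20 points. The background was 22.2% of stretches lower by 5 points on the rest of chromosome 16 and 22.6% over all chromosomes, and 1.48% lower by 20 points over all chromosomes. These shares are given beside counts that the choice of the locus fixed, and nothing is read from them.

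Among these 13 stretches the loss was largest in 43520001 to 43530000, which fell from 88.4% to 53.2% over 10 cytosines. Losses were larger in 4 stretches with 6 to 8 cytosines, each of them a single cluster. Near the end of the span, 43640001 to 43650000 fell from 88.0% to 53.5% over 14 cytosines. Near its start, 42910001 to 42920000 fell from 55.4% to 23.4% over 16 cytosines. All cytosines of these 3 stretches were lower in the ATO library. The stretch 43530001 to 43540000 went from 47.6% to 20.2%, with all 13 cytosines lower. The next losses were smaller and less uniform. They were -16.8 points in 43570001 to 43580000 (34.9% and 18.1%) and -16.6 points in 43540001 to 43550000 (47.0% and 30.4%). The last of the 8 largest were -16.0 points in 43600001 to 43610000 (53.8% and 37.8%) and -14.1 points in 43430001 to 43440000 (85.6% and 71.5%). Partly methylated stretches, with a mean of both libraries between 20 and 80%, numbered 9 of the 13, and these 8 were all among them. A loss itself lowers this mean. The stretches that began at 88.4%, 88.0% and 85.6% in the control were therefore counted as partly methylated, and nothing is read from this overlap. No stretch of at least 10 cytosines was higher, so no gain is named.

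**Figure D1:**
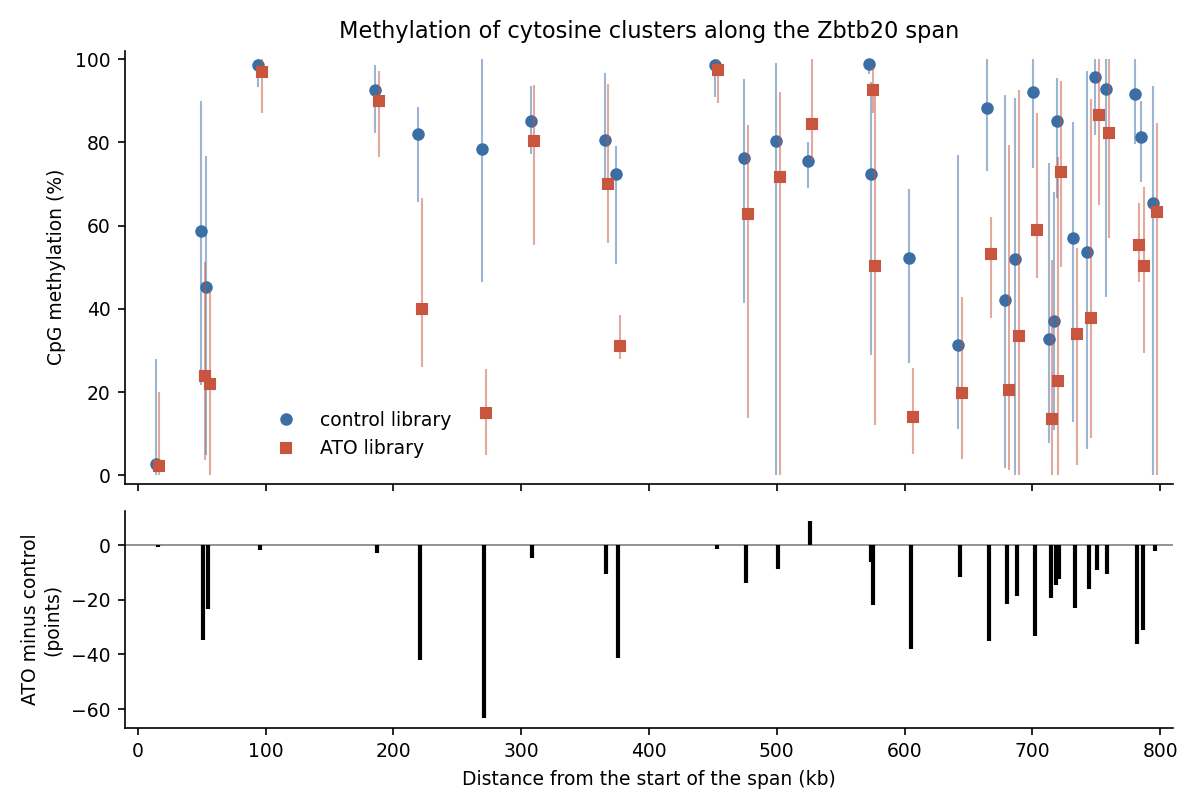
Methylation along the span, in 32 clusters of at least 3 cytosines. The upper panel gives the mean of each cluster in percent, as points, with lines from the lowest to the highest cytosine, and the lower panel gives ATO minus control in points against distance from the start of the span in kb. The leftmost cluster, 55 cytosines that include the island, averages 2.83% (control) and 2.22% (ATO), and 31 of the 32 clusters are lower in the ATO library.

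Analysed cytosines came in short captured clusters, here joined where neighbours lay at most 1000 bp apart, a grouping made after the values were seen. Of 35 clusters, 32 held at least 3 cytosines. The ATO mean was lower in 31 of these, by 10 points or more in 22, by 20 or more in 13 and by 30 or more in 9. In 16 clusters every cytosine was lower. The cluster with a higher ATO mean was at 43385896 to 43386116, where 3 cytosines averaged 75.6% in the control and 84.4% with ATO. Clusters were not formed outside the span, so these counts have no background share beside them. The locus was chosen for its loss, and nothing is read from them.

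The cluster with the largest loss lay at 43130770 to 43131086, 271 kb into the span, and was read on the forward strand only. Its 6 cytosines had 46.5%, 81.4%, 89.5%, 88.0%, 64.7% and 100% in the control. The ATO library had 25.6%, 6.82%, 11.4%, 22.6%, 5% and 19.0% at the same positions. The mean thus fell from 78.3% to 15.1%, and the ranges of the libraries did not overlap. Coverage was moderate, with medians of 31.5 and 33 reads. This cluster held the 3 cytosines with the largest called losses, at 43131086 (-81.0 points, 11 and 21 reads), 43130931 (-78.1) and 43130901 (-74.6).

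The next 5 clusters by size of loss fell by 35.2 to 42.0 points on average. At 43080477 to 43081457 the 7 control levels lay between 65.7% and 88.5% and the ATO levels between 26.1% and 66.7%, so that the ranges just met. At 43235318 to 43235711 the control had 78.0%, 78.4%, 73.3%, 74.0%, 79.1%, 72.4% and 50.8%. The ATO library had 32.0%, 38.6%, 28.2%, 28.7%, 31.8%, 30.7% and 28.0%, over medians of 125 and 150 reads. No ATO level reached the lowest control level in this cluster. The 8 cytosines at 43464859 to 43465207 averaged 52.2% and 14.1%, with ATO levels of 5.26% to 25.9%.

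The clusters at 43525551 to 43525961 and 43641315 to 43641630 started at high control means of 88.4% and 91.7%. In the first, 10 control levels of 73.1% to 100% stood against ATO levels of 37.9% to 62.2%. In the second, 9 control levels of 79.7% to 100% stood against 46.6% to 65.3%. At 43641505, 141 control reads were all methylated, while 57.4% of 148 ATO reads were. These losses therefore ended at intermediate levels rather than at the low levels reached 271 kb into the span.

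**Figure D2:**
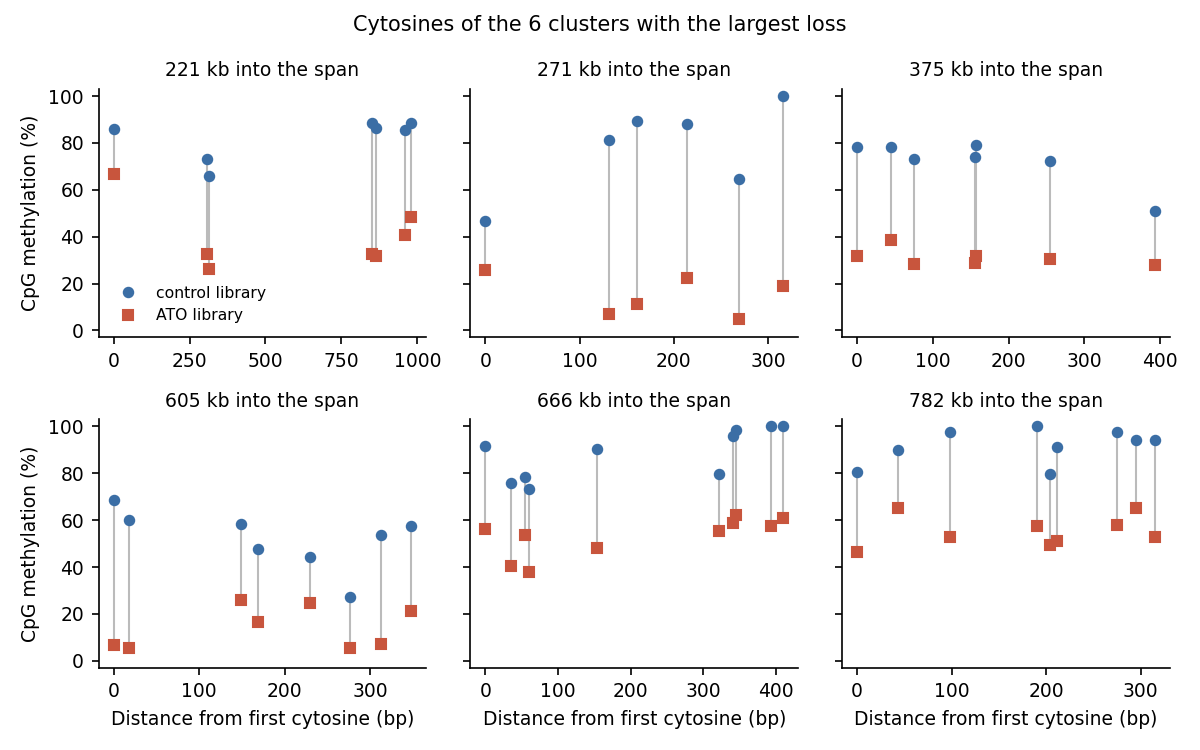
Single cytosines of the 6 clusters with the largest loss, with methylation in percent against distance from the first cytosine in bp. Circles are the control library and squares the ATO library, joined by a line for each cytosine, and all 47 cytosines drawn are lower in the ATO library.

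Not all of the locus moved. The 28 cytosines at 42955677 to 42956039 averaged 98.5% in the control and 96.9% with ATO, and the 24 at 43312609 to 43313124 averaged 98.6% and 97.3%. These 2 clusters held 34 of the 42 forward-strand cytosines of the span. Sorted on the mean of both libraries, they and 3 other clusters stood at 90% or more, and the other 26 clusters outside the island stood between 10 and 90%. A loss itself lowers this mean, so the differences of these kinds are not compared. The clusters at 43562114 to 43562287 and 43641315 to 43641630 began at 92.2% and 91.7% in the control, fell to 58.9% and 55.4%, and were counted between 10 and 90%. Clusters at 90% or more held a median of 2.82 analysed CpGs per 100 bp, between 1.57 and 6.58. Those between 10 and 90% held a median of 1.51, between 0.37 and 5.93. The ranges overlapped, and the cluster of 28 cytosines at 43618426 to 43618896 fell from 92.8% to 82.3% at 5.93 CpGs per 100 bp.

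Single cytosines and bins were called over the whole genome with Fisher's exact test, which compares the reads of 2 libraries and not the conditions. Calls on single cytosines needed a Benjamini-Hochberg adjusted p under 0.05 together with 25 points or more of difference. In the locus 82 of 376 cytosines were called lower (21.8%) and 0 higher, beside 1.73% called lower and 0.916% called higher over all analysed cytosines. A bin of 500 bp with at least 5 cytosines was called at a difference of at least 20 points. Of 31 such bins in the locus, 7 were called lower and 0 higher, beside 1.17% and 0.63% of all bins. These counts describe the contrast that chose the locus and are no evidence for it.

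The 7 called bins lay in 7 different clusters, and their values are shares of summed calls. The bin at 42910001 to 42910500 had 45.6% in the control (exact interval 35.6 to 56.3) and 11.4% with ATO (6.10 to 18.4). The bin at 43235001 to 43235500 had 76.4% and 31.8%, and that at 43435001 to 43435500 had 67.8% and 45.7%. The bin at 43525501 to 43526000 had 88.5% and 52.9%, and that at 43539501 to 43540000 had 40.5% and 14.8%. The bin at 43603501 to 43604000 had 66.5% and 36.3%. The last, at 43641501 to 43642000, had 92.0% (85.7 to 96.7) and 54.9% (44.8 to 64.1). Every cytosine of these 7 bins was lower in the ATO library.

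Over the whole genome, partly methylated cytosines differed by -3.76 points on average, so the locus was set beside cytosines of chromosome 16 at the same level. Classes of 10 points were taken on the mean of both libraries, so control levels were not matched. The rest of the chromosome would give a mean difference of -1.67 points at the levels of the locus, and the locus exceeded this by -13.0 points. Of the 376 cytosines, 294 lay below the mean that the rest of the chromosome had in their class. Under 10% this mean was 0.0095 points, so cytosines with equal levels there count as below. The matching share on the rest of the chromosome was not computed, and nothing is read from this count. Among the 162 partly methylated cytosines (20 to 80%) the control averaged 65.2% and the ATO library 38.2%. Their difference was -27.0 points (SD 17.9), and 151 of the 162 were lower. On the rest of the chromosome 17689 such cytosines averaged 55.29% in the control and 52.15% with ATO. They differed by -3.14 points (SD 19.7), and 10125 of them were lower.

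**Figure D3:**
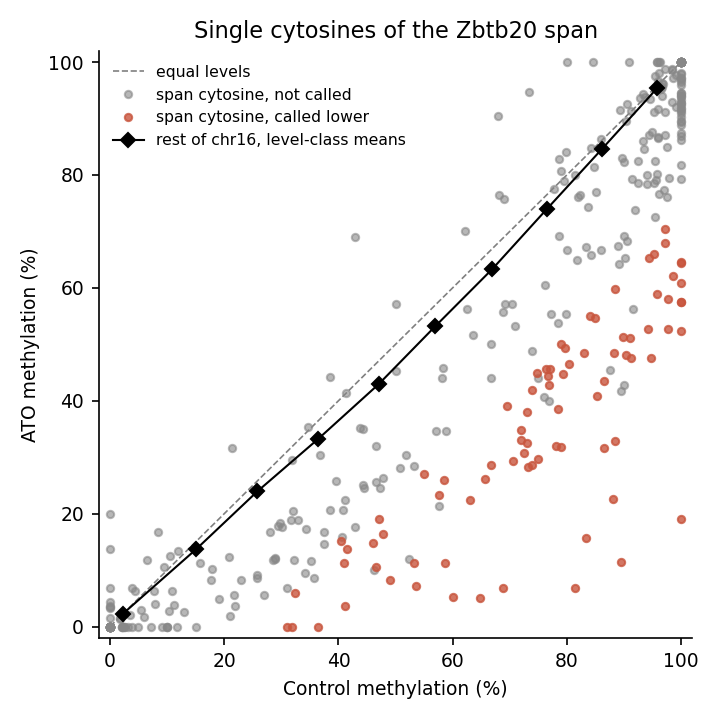
ATO against control methylation in percent for the 376 cytosines of the span, with the 82 called lower in red. Diamonds are the class means of the rest of chromosome 16, which stay near the line of equal levels, while the called cytosines lie far below it.

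A class on the mean of both libraries limits the difference it can hold, least in the middle and most at the ends, so classes are set beside the same class elsewhere and not beside each other. In the class of 50 to 60%, 31 cytosines of the locus differed by -34.3 points (72.5% and 38.2%). Elsewhere on the chromosome 2707 cytosines of this class differed by -3.76 points (56.9% and 53.2%). In the class of 20 to 30% the differences were -20.7 and -1.85 points, and in that of 80 to 90% they were -14.3 and -1.55 points. At 90% and above, 92 cytosines differed by -2.53 points against -0.43 points. Below 10% the 64 cytosines differed by -1.48 points, with an SD of 4.63. Single cytosines varied widely on the rest of the chromosome, where the SD within a class reached 22.1 points.

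**Figure D4:**
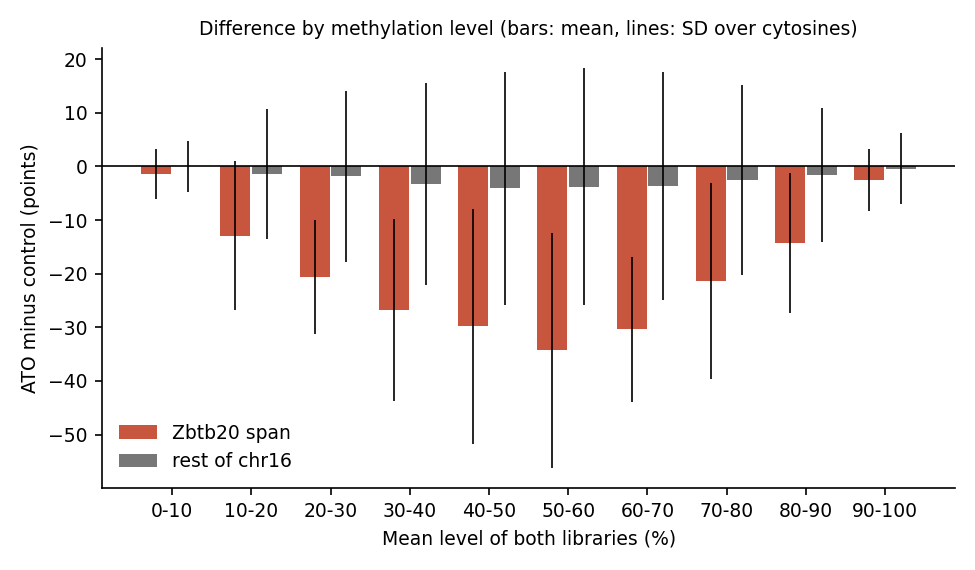
Mean ATO minus control in points by class of mean level, for the span (red) and the rest of chromosome 16 (grey), with lines of 1 SD over cytosines. The red bars reach -34.3 points in the middle class and the grey bars no lower than -4.10 points.

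Among windows of 800 kb along the autosomes with at least 100 analysed cytosines, the span had the most negative mean of 2423, before and after adjustment for level. Adjusted to all autosomal cytosines outside the span, it stood at -12.7 points. The next window stood at -11.2, the fifth at -6.07, and the SD over windows was 1.62. On chromosome 16 the next lowest of 89 windows stood at -3.43 points. Windows of chromosome 16 were laid from the start of the span, and those of the other autosomes from the start of the chromosome. The span therefore filled its window exactly, while a region of loss elsewhere could be split between windows. The locus was also chosen for its loss, so the rank of the span is a description.

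The flanks of the span differed from each other. In the 100 kb before it, 34 cytosines differed by -2.37 points, -0.47 after adjustment. In the 100 kb after it, where the Tigit start lies, 120 cytosines differed by -9.96 points, from 76.3% to 66.3%, or -7.15 after adjustment. Over the 800 kb before and after the span the adjusted differences were -0.12 and -0.45 points. Inside the span the loss was also uneven. It was -47.5 points after adjustment in the window 200 to 300 kb from the start, with 13 cytosines, and -3.87 points at 400 to 500 kb, with 35. The last 2 windows, with 69 and 120 cytosines, stood at -20.3 and -13.7 points.

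**Figure D5:**
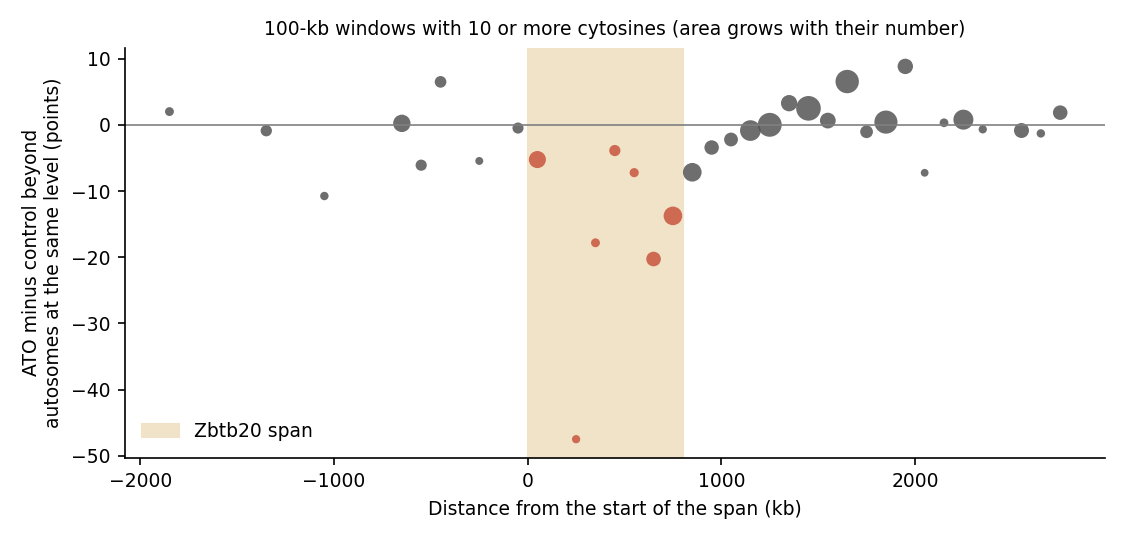
ATO minus control beyond the autosomal mean at the same level, in points, for 100-kb windows with at least 10 cytosines against distance from the start of the span in kb. Point area grows with the number of cytosines, the span is shaded, and its 7 windows lie between -47.5 and -3.87 points while the 27 outside lie between -10.7 and 8.85.

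Cytosines that the coverage minimum left out were also lower in the ATO library away from the island, by an amount that depended on the set. In those listed in either library and more than 1 kb from the island, 1036 cytosines, 76.0% of 1446 control calls and 66.4% of 1572 ATO calls were methylated. Of those more than 1 kb from it, 220 were listed in both libraries, with 807 and 833 calls. Methylated calls made up 75.7% (exact interval 72.6 to 78.6) in the control and 61.1% (57.7 to 64.4) with ATO. Within 1 kb of the island 84 such cytosines had 2.04% and 2.21%. All 304 had 49.7% and 46.6%, with 441 control calls and 272 ATO calls near the island. At the threshold itself, 38 cytosines whose shallower library had 10 to 14 reads differed by -10.04 points on average (SD 21.0), with 17 lower. The 51 just below it, with 5 to 9 reads, differed by -9.55 points on average (SD 24.0), with 19 lower, and 14 of them lay within 1 kb of the island. The median difference was 0 in both sets. More than 1 kb from the island, the mean difference was -14.5 points in 27 of the 38 and -12.5 points in 37 of the 51. The strands could be compared at only 13 CpGs, none of them partly methylated.

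Other regulators of hippocampal and cortical identity were placed by the same CpG spacing, from a list of 22 genes of which 15 were placed. Where a gene had several starts, the first one placed was used. Of 10 such promoters with analysed cytosines, 9 were under 10% in both libraries. A further Pax6 start, outside this count, had 11.4% and 17.5% over 15 cytosines. Neurod2, a neuronal differentiation factor, had 12.9% and 5.04% over 8 cytosines. In windows reaching 100 kb to each side of the placed start, the level-adjusted difference ranged from -6.21 to 9.50 points with a median of 0.49, and was negative for 7 of 15. The lowest were Neurod1, a factor of granule neuron development, with 31.0% and 23.5% over 276 cytosines, and Bcl11b, a zinc finger factor of projection and granule neurons, with 52.6% and 45.5% over 937. The window of Prox1, a marker of dentate granule cells, differed by -0.04 points after adjustment. The highest were Mef2c, an activity-regulated factor, with 21.5% and 29.8% over 95 cytosines, and Cux2, a factor of upper cortical layers, with 49.9% and 52.4% over 785. Windows of this kind also cover neighbouring genes. None of these 15 windows fell as far as the -12.7 points of the Zbtb20 span. The span was chosen for its loss in these same libraries, so nothing is read from this. The windows also differ from it in length and number of cytosines, and the difference was not tested.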

How the data were processed

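CpG methylation was measured by capture bisulfite sequencing in 2 hippocampal libraries, 1 control and 1 ATO. Build mm9, Bowtie2, Bismark 0.19.0 and bcl2fastq appear in the submitters' processing notes. Whether reads were trimmed or duplicates removed is not given in the sources used here. Per the file headers, the deposited coverage is a raw count of reads per cytosine and strand, and freqC and freqT are its C and T shares in percent, with 2 decimals. C resists bisulfite when methylated or hydroxymethylated, and these were not told apart. Methylated reads were recovered as coverage times percent, and 100% of products were whole within 0.005 points.

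Cytosines with at least 10 reads in both libraries were kept. Levels were averaged over cytosines and differences are ATO minus control. Fisher's exact test (two-sided, Benjamini-Hochberg over all cytosines or bins genome-wide) gave calls, and bin sums were first divided by the largest number of cytosines in any 300 bp. The intervals given for called bins are on these divided sums. A promoter was placed where it had at least 5 CpGs, at least 90% matched listed cytosines with at most 2 others in the window, at a single position on its chromosome. Callers were tested on simulated data. Python 3.11.15, numpy 2.4.6, pandas 2.3.3, scipy 1.17.1 and matplotlib 3.10.9 were used. Reads may share fragments or be duplicates, so intervals cover counting error only. Apart from those of called bins, intervals take all calls as independent and are too narrow even for that error.

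The locus, gene list and tests were chosen with earlier results of these data known. Named were the island, the 8 stretches with the largest loss and up to 3 with gain, each called bin, the 3 called cytosines with the largest loss and the listed genes that could be placed. Clusters, 800-kb and 100-kb windows, the windows around placed starts and cytosines under the coverage minimum were added after seeing the data. Of 40 alternatives, 37 were planned and 3 added.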

Additional observations from a re-analysis of the deposited data

How the results depend on the processing

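The loss at the locus stayed negative in each of the 9 alternatives for its mean and the 8 for its excess over chromosome 16. None of the alternatives of the called cytosines and bins gave a call higher in the ATO library. All alternatives use the 2 libraries in which the locus was chosen for its loss. A stable sign is therefore no evidence for the loss. The mean that defines partly methylated cytosines is itself lowered by a loss. The mean of -14.6 points was -15.7 with a coverage minimum of 20, -17.3 with each call weighted alike and -27.0 in partly methylated cytosines alone. It was -16.5 without the unmethylated island and -13.9 without the cluster of largest loss, both chosen after seeing the data. The excess of -13.0 points was -13.9 with a coverage minimum of 20, -23.9 in partly methylated cytosines and -12.2 without that cluster. Called bins went from 7 to 4 with bins of 200 bp and to 2 with at least 10 cytosines per bin, where 21 and 8 bins could be tested against 31. Stretches lower by 5 points went from 10 of 13 to 17 of 22 with at least 5 cytosines per stretch. Called cytosines ranged from 73 to 84 against 82, and the count of islands stayed at 1. Other alternatives stayed within counting error (0.706 points, with calls taken as independent) or 1.5 times the count. Apart from the changed number of bins and stretches, the cause was not tested. No paired analysis was possible because each group had 1 library. The absence of replicates limits every value here, since variation between animals was not measured.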
